A study of Mus musculus with 3 samples.

Results

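Nono and Tbp are 2 of the 15 genes that the array files name by a RefSeq accession. Nono was read by probe CUST_11_PI419532418 (NM_023144.2) and Tbp by probe CUST_7_PI419532418 (NM_013684.3), and both accessions matched their symbols in a RefSeq table with versions left off. Each probe was printed in 20 spots per array, which gave 120 spots over 3 arrays. The whole array carries 60915 probes besides its negative ones. Both probes were chosen by name and not by their values.

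The samples were PMN-MDSCs (polymorphonuclear myeloid-derived suppressor cells), cells of the neutrophil lineage known for restraining T cells, from male C57BL/6 mice aged 6 to 8 weeks. An isolation kit and a sort on CD11b and Ly6G enriched them; the clone given for the Ly6G antibody is generally known as anti-Gr-1, which binds Ly6C as well. There was 1 array each for cells from tumor tissue of tumor-bearing mice, from the spleen of tumor-bearing mice and from the spleen of wild-type mice. The tumor type and the number of mice behind each array are not given in the sources used here. Of 42 marker genes for neutrophils and other cell types, 0 were read by a named probe, so the identity and purity of the cells were not analysed here. With 1 array per group, nothing was tested, no p-value was computed and a difference has no replicate check; 2-fold is used as a descriptive size limit. In bulk RNA, fewer cells that express a gene and less RNA of that gene per cell cannot be told apart.

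Nono encodes an RNA- and DNA-binding protein of the DBHS family, which works in dimers with its relatives Sfpq and Pspc1. It is a core protein of paraspeckles, nuclear bodies built on the long noncoding RNA Neat1, and takes part in transcription, splicing and DNA break repair. Tbp encodes the TATA-binding protein, the DNA-binding subunit of the general transcription factor TFIID, and also sits in the initiation factors of RNA polymerases I and III. Both genes are active in most cell types and serve as reference genes in expression assays. For short, the 15 genes named by a RefSeq accession are called reference genes here. Their role on this array was not checked.

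The promoters of both genes are printed here to show the loci behind the probes, since Tbp acts at such sequences and the probes' own sequences are not in the files used here. Each runs from 250 bases before to 50 bases after the RefSeq start site, on the plus strand of GRCm38.p6. Nono lies on chromosome X (chrX:101429401-101429700) and Tbp on chromosome 17 (chr17:15499638-15499937). Capitals mark matches, on either strand, to the TATA box TATAAA, the CCAAT box CCAAT, the GC box GGGCGG and the ETS core CGGAAG.
Nono: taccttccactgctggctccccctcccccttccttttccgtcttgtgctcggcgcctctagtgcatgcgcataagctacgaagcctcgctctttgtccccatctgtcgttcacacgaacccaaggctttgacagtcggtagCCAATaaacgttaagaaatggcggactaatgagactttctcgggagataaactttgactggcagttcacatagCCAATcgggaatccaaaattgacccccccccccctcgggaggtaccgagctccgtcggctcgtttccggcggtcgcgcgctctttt
Tbp: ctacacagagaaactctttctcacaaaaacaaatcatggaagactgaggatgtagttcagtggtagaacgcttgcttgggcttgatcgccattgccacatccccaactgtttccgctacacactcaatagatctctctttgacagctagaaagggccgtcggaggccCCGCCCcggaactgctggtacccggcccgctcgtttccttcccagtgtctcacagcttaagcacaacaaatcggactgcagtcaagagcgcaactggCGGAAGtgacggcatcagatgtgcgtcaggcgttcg

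The letters TATAAA were in neither window, while 13.6% of the 32851 promoters in the table hold them. The Nono window holds CCAAT at 2 places, starting at -109 and -36 from the start site, a motif present in 37.4% of promoters. The Tbp window holds the GC box on the minus strand at -83 and the ETS core at 15, motifs present in 35.7% and 16.9% of promoters. The windows are 55.7% and 53.3% G and C for Nono and Tbp, beside a median of 52.7% over the table. The arrays measured no promoter, so these matches are a description of the loci only.

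Both probes were bright on all 3 arrays. All 20 spots of each probe were well above background on each array, and the dimmest usable spot of either probe was at least 123 times as bright as any spot of the same array's 15 negative probes. No spot was saturated. Spots that the scanner software flagged as outliers were left out, 13 of the 120 in all, of which 5 were Tbp spots on the tumor-bearing spleen array.

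Nono read highest on the wild-type spleen array and lowest on the tumor-bearing spleen array. Its usable spots on the wild-type spleen array ran from 77852 to 90081 signal units, with a median of 84285 over 19 spots. On the tumor array they ran from 25120 to 28361 with a median of 27480 over 17 spots, and on the tumor-bearing spleen array from 20527 to 22750 with a median of 21744 over 17 spots. These ranges of usable spots did not overlap between any of the arrays, but the signals are not yet scaled between arrays. A flagged spot on the tumor-bearing spleen array read 25168, within the tumor range.

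Levels were scaled by subtracting the 75th percentile of all probes of an array from the log2 signal. That percentile was 524 signal units for tumor, 509 for tumor-bearing spleen and 698 for wild-type spleen. On this scale Nono stood at 6.91 ± 0.06 (SD over 19 spots) in wild-type spleen, 5.70 ± 0.05 (17 spots) in tumor and 5.41 ± 0.04 (17 spots) in tumor-bearing spleen. The usable spots still fell into 3 separate ranges, 6.80 to 7.01, 5.58 to 5.76 and 5.33 to 5.48. A flagged spot on the tumor-bearing spleen array, left out here, read 5.63, within the tumor range. How often other probes separate in this way was not counted. The SD is between repeated spots of 1 hybridisation, so it is technical and holds nothing of the variation between mice.

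Tbp differed less between the arrays. Its usable spots ran from 12450 to 14819 signal units on the wild-type spleen array (median 12839, 20 spots), from 7531 to 8530 on the tumor-bearing spleen array (median 8121, 15 spots) and from 6812 to 7744 on the tumor array (median 7454, 19 spots). After scaling, its levels were 4.23 ± 0.06, 3.99 ± 0.05 and 3.82 ± 0.05 in the same order. The scaled usable spots of tumor (3.70 to 3.885) and tumor-bearing spleen (3.887 to 4.07) nearly touched, and those of wild-type spleen (4.16 to 4.41) lay above both. Among the flagged spots of tumor-bearing spleen, left out here, one read 3.85, within the tumor range.

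**Figure D1:**
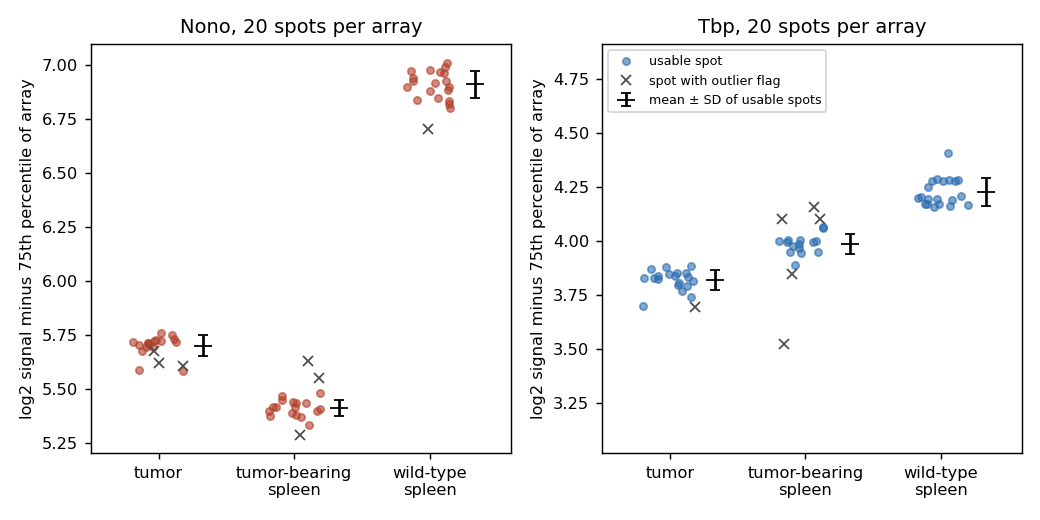
Each point is 1 spot of the Nono probe (left) or the Tbp probe (right), by array, as log2 signal minus the array's 75th percentile; crosses are spots with an outlier flag, and black bars give the mean ± SD of the usable spots. Nono stands at 6.91 in wild-type spleen against 5.70 and 5.41 in the cells of tumor-bearing mice, while the Tbp means lie between 3.82 and 4.23; both panels span the same number of log2 units.

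The first comparison was between PMN-MDSCs of the tumor and those of wild-type spleen. In PMN-MDSCs of the tumor Nono read 2.31-fold lower, at -1.21 ± 0.08 on the log2 scale (SD between spots, combined over both arrays). Tbp read 1.33-fold lower, at -0.41 ± 0.08. Both stayed lower under each scaling tried except a median of unlike genes' levels, described with the processing alternatives. The size of the Nono difference depended on the scaling. It fell short of 2-fold at -0.82 after quantile normalization and in the authors' deposited table, and at -0.95 with the 13 other reference genes as the scale. Those genes themselves varied, since 3 of the 13 were at least 2-fold lower and 2 at least 2-fold higher in this comparison. Tbp came to -0.07 after quantile normalization, less than its spot SD.

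Over all 43421 probes measured on both arrays, 18.3% were at least 2-fold lower in PMN-MDSCs of the tumor and 19.6% at least 2-fold higher. A difference of the size seen for Nono was therefore common on these arrays. Of the probes past 2-fold in either direction 51.7% were thus higher, but 44.8% with arrays centred on the median of detected probes, 63.9% with the 13 other reference genes as the scale and 95.3% with the median of unlike genes' levels. The median of those probes was 0.02, with 14.9% of them below Nono and 33.5% below Tbp. Probes of like brightness had lower medians on this scale. Among the 1574 probes within 0.5 log2 units of the mean level of Tbp over both arrays, the median difference was -0.41, the same as that of Tbp, and 50.1% of them lay below Tbp. Among the 913 probes as bright as Nono by the same limit, the median was -0.38 and 27.1% lay below Nono.

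The second comparison was between the spleens of tumor-bearing and wild-type mice. Nono read 2.83-fold lower in tumor-bearing spleen, at -1.50 ± 0.07, and Tbp 1.18-fold lower, at -0.24 ± 0.08. Except with the median of unlike genes' levels, Nono kept a difference of 2-fold or more under every scaling and background correction, from -1.13 in the authors' deposited table to -1.66 when arrays were centred on the median of detected probes. For Tbp the direction was not settled. It turned to 0.04 after quantile normalization and 0.02 in the authors' deposited table, and was -0.10 with the 13 other reference genes as the scale. Between the spleens 5 of those genes were at least 2-fold lower and 3 at least 2-fold higher. This comparison uses the same wild-type array as the first, so the lower values of Nono in both are not independent.

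Both spleen arrays measured 42323 probes. In tumor-bearing mice 21.9% of them were at least 2-fold lower and 27.4% at least 2-fold higher, with a median difference of 0.29 over all of them. The larger side depended on the scale: 55.6% of the probes past 2-fold were higher, against 48.8% with arrays centred on the median of detected probes and 90.4% with the median of unlike genes' levels. Below Nono lay 16.1% of these probes, and below Tbp 35.2%. Among probes within 0.5 log2 units of their own brightness, 28.2% of 933 lay below Nono and 47.3% of 1629 below Tbp. By this measure Tbp was close to the middle of probes as bright as itself in both comparisons with wild-type spleen.

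**Figure D2:**
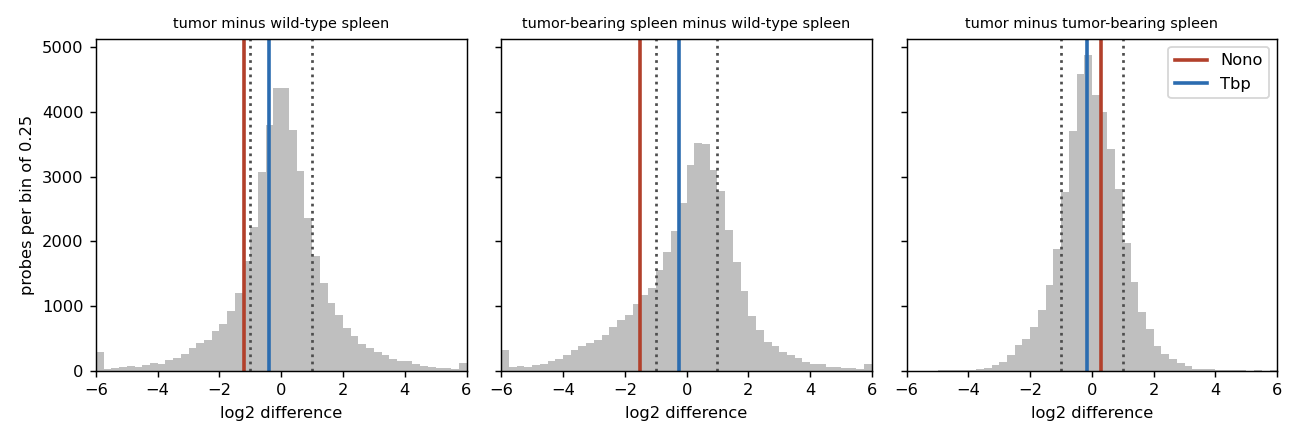
Grey bars count all probes measured on both arrays of each comparison by log2 difference, in bins of 0.25, with values beyond 6 in either direction in the end bins; coloured lines mark Nono and Tbp and dotted lines mark 2-fold. Nono lies past the 2-fold line at -1.21 and -1.50 in the comparisons with wild-type spleen and at 0.29 between tumor and tumor-bearing spleen, while Tbp lies within 2-fold in all 3.

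The last comparison was between both sites of tumor-bearing mice. Nono read 1.22-fold higher in the tumor than in the spleen, at 0.29 ± 0.06, and Tbp 1.12-fold lower, at -0.17 ± 0.06. Both lay within 2-fold. Of 42843 probes, 14.2% were higher in the tumor by that much or more and 14.7% lower. The higher ones were 49.0% of those past 2-fold, and 68.4% with the median of unlike genes' levels. Nono stayed higher under every alternative, from 0.27 to 0.56. Tbp stayed lower, from -0.18 to -0.05, except that it turned to 0.11 with the median of unlike genes' levels as the scale.

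Nono and Tbp changed by unequal amounts, and a constant scaling factor of an array cancels when one difference is subtracted from the other. The Nono difference minus the Tbp difference was -0.80 ± 0.11 (SD between spots) for tumor against wild-type spleen, or 1.75-fold. For tumor-bearing spleen against wild-type spleen it was -1.26 ± 0.11, or 2.39-fold. Between tumor and tumor-bearing spleen it was 0.45 ± 0.09, or 1.37-fold. Over 13 alternatives it ran from -0.83 to -0.74, from -1.29 to -1.15 and from 0.41 to 0.48. The median of detected probes and both reference gene scales are constant factors, so they left it unchanged by arithmetic. Quantile normalization is not a constant factor, and gave -0.75, -1.18 and 0.44. Under the alternatives that could change it, the ratio of Nono to Tbp signal stayed highest in wild-type spleen and lowest in tumor-bearing spleen. It shows unequal change and not which of the genes changed.

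**Figure D3:**
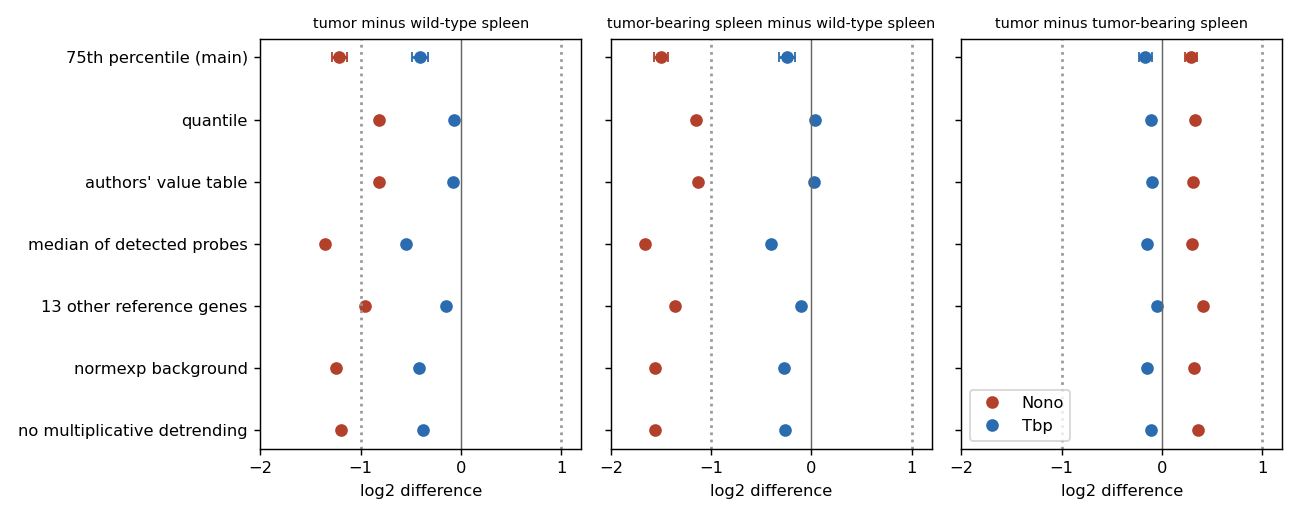
Log2 differences of Nono and Tbp in the 3 comparisons under 7 ways of scaling or correcting the signals. Bars on the top row are ± 1 SD between spots and dotted lines mark 2-fold. Not shown is the median of unlike genes' levels. Against wild-type spleen it gave Nono 0.66 in tumor and 0.10 in tumor-bearing spleen, and Tbp 1.47 and 1.36. Within each panel the gap between the genes stays near its main value (-0.80, -1.26 and 0.45) while both points shift together. For the median of detected probes and the 13 other reference genes the gap cannot change, because a constant factor cancels. Tbp crosses 0 in the middle panel after quantile normalization (0.04) and in the authors' deposited table (0.02).

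The differences did not rest on a few spots. Each probe had 14 positions with a usable spot on all 3 arrays, and Nono was lower than in wild-type spleen at 14 of 14 of them on either other array, from -1.33 to -1.13 in the tumor and from -1.60 to -1.42 in tumor-bearing spleen. On the percentile scale Tbp was lower at 14 of 14 positions too, from -0.64 to -0.31 and from -0.46 to -0.17. The counts for Nono are on that scale as well. These positions share 1 hybridisation and 1 scaling per array and are not replicates. Another scaling would move all positions of a gene nearly together, so the counts cannot settle a direction that depends on the scaling. For Tbp in tumor-bearing spleen it did, with a difference of 0.04 after quantile normalization and 0.02 in the authors' deposited table.

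The differences of Nono varied with place on the array. Between tumor and wild-type spleen they were -1.32 and -1.33 at rows 15 and 20 of the 384 rows, -1.30 at row 143, between -1.24 and -1.22 at rows 170 to 173, and near -1.13 at rows 309 to 349. Between tumor and tumor-bearing spleen they were 0.13 and 0.15 at rows 15 and 20 but 0.40 at row 214, and at the other 11 positions they lay between 0.26 and 0.34. Against wild-type spleen, the mean tumor difference over rows up to 192 was -1.23 and over later rows -1.16, a gap smaller than the spot SD of 0.078. With the array split by column instead, it was -1.169 and -1.255, a gap larger than that SD. The SD between spots includes the variation with place, so it cannot show whether that variation exceeds noise. For Tbp the position at row 55 stood apart at -0.64, where the wild-type spot read 14819 signal units, the highest of its 20. The file headers record a multiplicative correction for place on the tumor and wild-type spleen arrays but not on the tumor-bearing spleen array, and without it the Nono differences were -1.20 and -1.56 against wild-type spleen and 0.36 between tumor and tumor-bearing spleen.

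**Figure D4:**
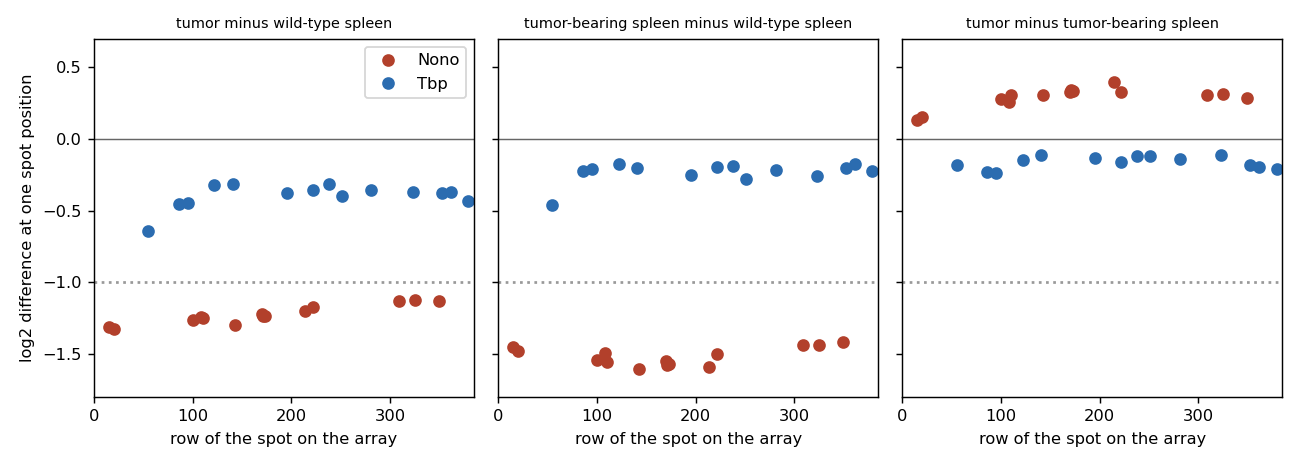
Log2 difference at each spot position usable on all 3 arrays, 14 per gene, against the row of the spot on the array; the dotted line marks 2-fold lower. On this scale, in both comparisons with wild-type spleen, every Nono position lies below the dotted line and every Tbp position between it and 0. The lowest Tbp point is at row 55. Another scale would move the points of a gene in a panel nearly together.

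Among the 15 reference genes, those with the profile most like Nono over the 3 arrays were Hprt, the purine salvage enzyme, Gusb, the lysosomal beta-glucuronidase, and Tuba1b, an alpha-tubulin. Likeness was the Euclidean distance between log2 levels after each gene's mean over the arrays was removed, and these 3 lay at 0.59, 0.71 and 0.76, with Tbp at rank 5 of 14 and 0.90. After quantile normalization the nearest was Ppia, the cyclophilin A gene, at 0.49. Nearest to Tbp were Tfrc, the transferrin receptor, at 0.15, Gapdh, the glycolytic enzyme, at 0.45 and B2m, which encodes the light chain of MHC class I, at 0.46, and these 3 were also the nearest after quantile normalization. With only 3 arrays, such distances describe these arrays alone.

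Ratios between reference genes do not depend on a constant scale. For Tbp, the SD over the 3 arrays of the log2 ratio to another gene, averaged over 14 partners, was 0.87, the lowest such mean of the 15 genes, with Tfrc next at 0.89, and this mean was also lowest after quantile normalization, at 0.83. Its closest partner was Tfrc, with an SD of 0.10, and its furthest was Gk, the glycerol kinase, at 1.81. Nono had rank 8 by this mean, at 1.02, with Hprt as its closest partner at 0.42, and the log2 ratio of Nono to Tbp had an SD of 0.64. The order depended on the summary: by the median over partners Ppia was lowest at 0.70, followed by Tbp at 0.74 and Nono at 0.81. Among the other 14 genes, 3 had a more negative difference than Nono between tumor and wild-type spleen (Gusb, Hsp90ab1 and Rpl13a) and 4 between the spleens, Tuba1b besides these, while Tbp was near the middle with 6 and 7 genes below it.

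**Figure D5:**
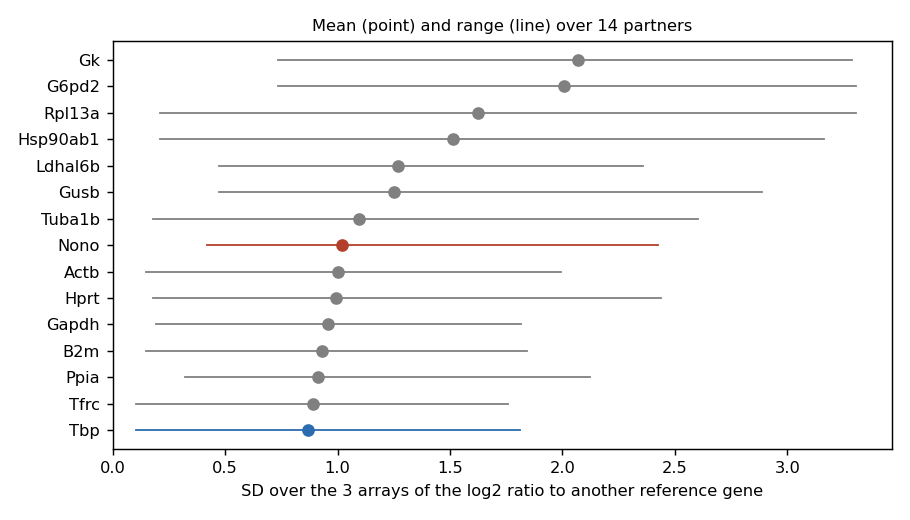
For each of the 15 reference genes, the SD over the 3 arrays of its log2 ratio to each of the other 14, with the mean as a point and the lowest to highest as a line. Tbp has the lowest mean (0.87), Tfrc follows (0.89), and Nono has rank 8 by the mean (1.02); the arrays are of 3 different groups, so this spread is not replicate error.

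Control probes for the ends of 2 other transcripts moved with the groups as well. For Pgk1, which encodes a kinase of glycolysis, the 5′ probe differed from wild-type spleen by -1.98 ± 0.08 in tumor and -1.93 ± 0.10 in tumor-bearing spleen, and its 3′ probe by -0.85 ± 0.04 and -0.56 ± 0.06. The 5′ probe of Gapdh differed by -0.60 ± 0.07 and 0.13 ± 0.08 and its 3′ probe by -0.55 ± 0.06 and 0.30 ± 0.06. Where the Nono and Tbp probes lie along their transcripts is not known here, and the part of RNA length in their differences was not tested. The RefSeq table lists 4 transcripts of Nono and 1 of Tbp, and which of the Nono transcripts the probe reads was not analysed here.

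The partners of these proteins could not be followed. Of 15 genes listed for the DBHS family and paraspeckles, among them Sfpq, Pspc1 and Neat1, 1 was read by a named probe, Nono itself. Of 35 genes listed for general transcription factors and polymerase subunits, among them the TFIID subunits Taf1 to Taf13, that gene was Tbp alone. Other probes for these genes, or for Nono and Tbp themselves, may be among those that carry the array maker's identifier only, and they were not analysed here.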

How the data were processed

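Total RNA was labelled with Cy3 and hybridised to an Arraystar mouse lncRNA array, 1 array per group. Per the file headers, the deposited intensity values come from Agilent Feature Extraction 11.0.1.1, background-subtracted, with a multiplicative correction for place on the tumor and wild-type spleen arrays only, not scaled between arrays; the number of arrays limits the precision. The deposited value table holds log2 values of the same arrays. Its columns have equal medians (6.40) and maxima (18.9), and the sources used here do not state how they were scaled. Its differences were nearly those after quantile normalization (Nono -0.818 and -0.819 for tumor minus wild-type spleen), so these settings are not separate checks.

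Spots with outlier flags were left out, log2 processed signals of a probe's spots averaged, and the array's 75th percentile over 60915 probes subtracted. Probes entered a comparison if most spots on each of its arrays were well above background. Nono and Tbp are described in full, with the 3 reference genes nearest to each in profile. The members, lists and rules were chosen with earlier results of these data known; the brightness window, the pairwise ratios and the promoter motifs were chosen after the files were read. Functions were tested on simulated data. Software was limma 3.58.1 under R 4.3.3 for normexp and quantile normalization, and Python 3.11.15 (pandas 2.3.3, numpy 2.4.6, matplotlib 3.10.9) for the rest.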

Additional observations from a re-analysis of the deposited data

How the results depend on the processing

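Of 117 recomputed differences, 92 moved by less than the SD between spots, 18 moved further and 7 changed direction. The 92 include every value of the Nono difference minus the Tbp difference. Those under the median of detected probes and both reference gene scales could not change, so the tally is not a count of separate checks. All of the 18 and the 7 were differences of a single gene. Tumor minus wild-type spleen, Nono and Tbp came to -0.819 and -0.0715 after quantile normalization, -0.818 and -0.0781 in the authors' deposited table, -1.36 and -0.55 with arrays centred on the median of detected probes, and -0.95 and -0.15 with the median of the 13 other reference genes, each centred over the arrays. For tumor-bearing minus wild-type spleen the same settings gave -1.15 and 0.0372, -1.13 and 0.0233, -1.66 and -0.40, and -1.36 and -0.10. For tumor minus tumor-bearing spleen, the centred reference genes gave 0.41 and -0.0458, and Nono without multiplicative correction was 0.36. Chosen after seeing the data, the uncentred median level of those 13 genes gave Nono 0.66, 0.10 and 0.56 and Tbp 1.47, 1.36 and 0.11; its middle gene was Hsp90ab1 in tumor, Tfrc in tumor-bearing spleen and Hprt in wild-type spleen, so it sets unlike genes against each other. Background outliers left out and rows up to or past 192 were also added later and kept every direction. Leaving out background outliers removed only 1 usable spot, of Nono on the wild-type spleen array. It therefore could not change Tbp or the tumor against tumor-bearing spleen comparison.

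Counts of probes past the size limit moved over 1.5 times as follows. At 1.5-fold, tumor against wild-type spleen had 12820 higher and 12101 lower, and tumor against tumor-bearing spleen 11108 and 11422. At 4-fold, the 3 comparisons had 3458 and 3378, 3722 and 4906, and 1166 and 1478. A lower limit cannot give fewer probes and a higher limit cannot give more, so counts at other limits are not checks on the processing. Tumor against tumor-bearing spleen had 3747 and 3997 with normexp (offset 50), and 9915 higher with no filter on dim probes, beside 6066 and 6317. The other 41 of 54 recomputed counts stayed within 1.5 times the main count. No paired analysis was possible because each group has 1 array.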
